A study of Homo sapiens with 10 samples.

Results

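The 10 mRNAs described here encode the core machinery of the microRNA pathway. Their proteins are the Argonautes AGO1, AGO2, AGO3 and AGO4, the scaffold proteins TNRC6A, TNRC6B and TNRC6C, and the processing factors DROSHA, DGCR8 and DICER1. The mRNAs were chosen by symbol, as the rows of the count table that carry these 10 names in GENCODE release 29. All 10 were found among its 94946 rows. The table holds total RNA sequencing counts of PC3, a prostate cancer line of human origin that was established from a bone metastasis. Extracellular vesicles (EVs) were pelleted from its cultures at 3 centrifugation speeds, labelled 2.8K, 10K and 100K without stating a unit, and each speed has 3 libraries, numbered by set. A single library of whole PC3 cells has no replicate. All groups share the same line and the same medium, DMEM with fetal bovine serum, and the labels do not say whether the serum was cleared of vesicles. The labels name no genotype, drug or time. Nothing states that the sets were grown separately, so p-values reflect only the spread between these libraries, which may be technical.

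MicroRNAs are short RNAs that guide an Argonaute protein to matching sites, mostly in the 3' untranslated regions (UTRs) of mRNAs. In the nucleus, the RNase DROSHA and its partner DGCR8 cut a hairpin out of the primary transcript, and in the cytoplasm DICER1 trims the hairpin to the duplex that an Argonaute loads. TNRC6 proteins bind the loaded Argonaute and recruit the complexes that shorten the poly(A) tail, remove the cap and repress translation. Argonaute proteins and microRNAs have both been described as EV cargo, whereas the counts here concern the mRNAs that encode the proteins.

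Total counts ranged from 5424964 in EV 100K replicate 2 to 28735081 in the cell library. The 10 mRNAs together took 0.106% of the counts in cells, and 0.0778 to 0.0983%, 0.110 to 0.136% and 0.226 to 0.256% in the EV 2.8K, EV 10K and EV 100K libraries. The cytokeratins KRT8 and KRT18 and the mesenchymal marker VIM marked the cell library as epithelial-derived tumour cells, at 508, 392 and 401 CPM (counts scaled to a common library size with TMM factors). CDH1 was at 0.290 CPM there and EPCAM at 9.70 CPM, and KLK2 and KLK3, markers of luminal prostate cells, had no count. The leukocyte marker PTPRC had no count in any library. Mitochondrially encoded RNA moved with speed as well, from 4.81 to 12.9% of counts in EV 2.8K to at most 0.00802% in EV 100K, and leaving these genes out left the calls of the 10 mRNAs between pellets as they were. Of 7 tested PC3 markers, 5 were lower in EV 100K against EV 2.8K, beside 13.8% of all genes, and 0 were higher, beside 12.0%. Among the 5 was VIM, with a log2 fold change of -2.38. The part of these marker differences in the results below was not tested. Counts are shares of the RNA in a pellet. More vesicles that carry an mRNA, more copies per vesicle and less of other RNA therefore cannot be told apart. Whether the RNA lay within vesicles was not tested.

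Both DGCR8 and DICER1 are also host genes of microRNAs. These mature sequences are shown because they mark where the processing factors' own transcripts are substrates of the pathway. The DROSHA and DGCR8 complex is known to cleave hairpins within the DGCR8 mRNA. Of the sequences below, taken from RefSeq (GRCh38.p14), hsa-miR-3618 lies at chr22:20085797-20085818 in a UTR of 3 annotated DGCR8 transcripts. The arms of hsa-miR-1306 lie at chr22:20086072-20086093 and chr22:20086112-20086129 in the coding sequence of 4 DGCR8 transcripts, all on the plus strand. Both arms of hsa-miR-3173, at chr14:95137923-95137944 and chr14:95137961-95137982 on the minus strand, lie in an intron of DICER1. Capitals mark the seed, bases 2 to 8, which pairs with targets.
hsa-miR-3618: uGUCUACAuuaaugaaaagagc
hsa-miR-1306-5p: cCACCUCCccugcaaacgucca
hsa-miR-1306-3p: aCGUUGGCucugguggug
hsa-miR-3173-5p: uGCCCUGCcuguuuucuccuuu
hsa-miR-3173-3p: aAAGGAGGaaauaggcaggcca
The 5 seeds differ from one another. In the count table, the hairpin entries MIR3618 and MIR1306 had 0 counts in all 10 libraries, and MIR3173 had 3 counts, all in the cell library. The hairpins share 88 and 85 exonic bases with DGCR8, and the sources used here do not give how reads over 2 overlapping genes were assigned, so these zeros do not show that the stretches were unread. Over all 1881 microRNA gene entries, counts made up 0.00653 to 0.0172% of a library, and 276 entries had a count in any library. These counts come from total RNA libraries and were not taken as a measure of mature microRNAs.

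The pellets were compared to ask whether these mRNAs made up different shares of the RNA collected at each speed. In the pellet of the highest speed, 6 of the 10 were higher than in the pellet of the lowest: AGO1, AGO2, TNRC6A, TNRC6B, DGCR8 and DICER1, with fold changes between 1.14 and 2.80 on the log2 scale. AGO1 was also 1.98 log2 units higher in EV 10K than in EV 2.8K. The mRNAs of AGO3, AGO4, TNRC6C and DROSHA passed no comparison. Tests used edgeR's quasi-likelihood F-test on the 9 EV libraries, with p-values adjusted by the Benjamini-Hochberg method over 15525 genes and a threshold of 0.05.

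In EV 10K against EV 2.8K, 1 of the 10 was higher, beside 4.15% of all genes tested, and 0 were lower, beside 2.22%, with 6.38% of genes passing in either direction. In EV 100K against EV 2.8K, 6 were higher, beside 12.0% of all genes, and 0 were lower, beside 13.8%, with 25.8% in either direction. In EV 100K against EV 10K, 5 were higher (AGO1, AGO2, TNRC6A, TNRC6B and DICER1), beside 3.70%, and 0 were lower, beside 7.23%, with 10.9% in either direction. By DESeq2, 0 of the 10 were lower in each comparison, beside 638, 2260 and 1284 of 15525 genes in the order above. At an unadjusted p below 0.05 in edgeR, 0 of the 10 were lower in each of the 3 comparisons as well. The share of all genes lower at that limit is not given here, so this count describes the 10 only. A joint test for any difference between the pellets passed for the same 6 as EV 100K against EV 2.8K, beside 23.3% of all genes. The median log2 fold change of the 10 was 0.27, 1.32 and 0.83 in the 3 comparisons in this order, and that of all genes tested was -0.01, -0.06 and 0.01. The comparisons share libraries and are therefore not independent of each other.

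The 3 libraries of EV 100K lay above all 3 of EV 2.8K for 7 of the 10 mRNAs, beside 23.5% of all genes, and above all 3 of EV 10K for 7, beside 19.2%. EV 10K lay above EV 2.8K without overlap for 2, beside 11.4%. The reverse order without overlap occurred for 0 of the 10 in each comparison, beside 10.1% (EV 10K below EV 2.8K), 21.0% (EV 100K below EV 2.8K) and 16.7% (EV 100K below EV 10K) of all genes.

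**Figure D1:**
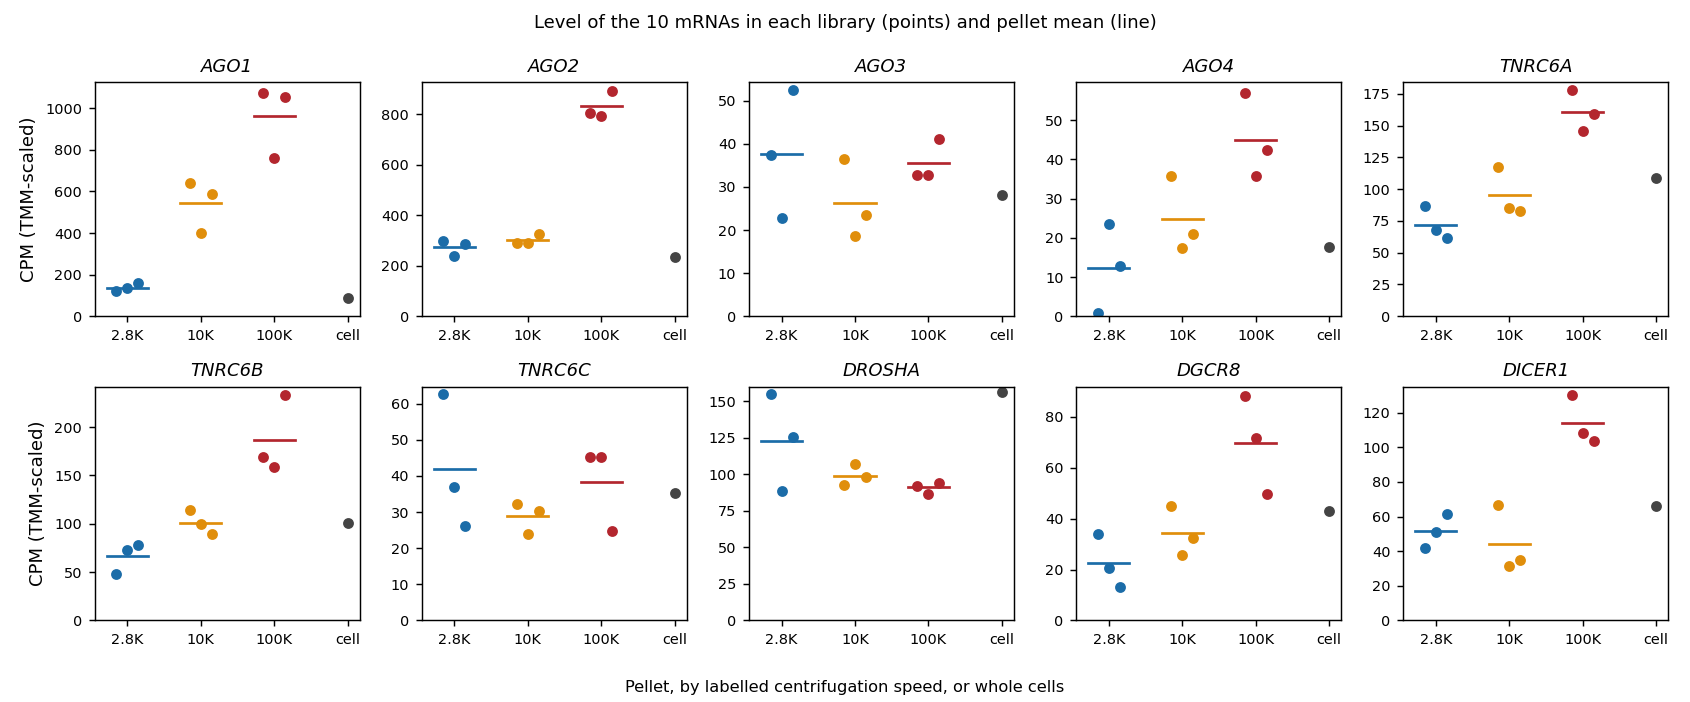
Level of each of the 10 mRNAs in every library, in CPM scaled by TMM factors, with 1 panel per mRNA, points for libraries and lines for the mean of 3 libraries. AGO1 rose from a mean of 138 CPM in EV 2.8K to 964 CPM in EV 100K, while the EV 100K points of AGO3, TNRC6C and DROSHA lay within 24.8 to 94.4 CPM and overlapped another pellet.

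AGO1, one of the 4 human Argonautes, had 119.9, 134 and 159 CPM in EV 2.8K, 639.8, 401 and 589.7 CPM in EV 10K and 1075, 762 and 1054 CPM in EV 100K. The cell library had 87.5 CPM. The 3 pellets did not overlap, each speed lay above the one before it, and every EV library lay above the cell value. Its log2 fold change was 1.98 (SE 0.22, adjusted p = 2.14e-05 in edgeR) in EV 10K against EV 2.8K and 2.80 (SE 0.23, adjusted p = 8.95e-08) in EV 100K against EV 2.8K. Between EV 100K and EV 10K it was 0.82 (SE 0.21, adjusted p = 0.0175 in edgeR), and this call was lost without EV 10K replicate 2 (adjusted p = 0.106) or 3 (0.0511) or EV 100K replicate 1 (0.0721) or 3 (0.0777).

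AGO2, the Argonaute best known for cutting its target RNA, followed another course. It had 297, 238 and 285 CPM in EV 2.8K, 289, 289.5 and 328 CPM in EV 10K, and 807, 796 and 895 CPM in EV 100K, against 234 CPM in cells. The 2 slower pellets overlapped, and all 3 EV 100K libraries stood above them. The log2 fold change of EV 10K over EV 2.8K was 0.15 (SE 0.18, adjusted p = 0.735 in edgeR), whereas that of EV 100K was 1.60 over EV 2.8K (SE 0.18, adjusted p = 3.26e-06) and 1.45 over EV 10K (SE 0.18, adjusted p = 4.41e-05). AGO2 kept both calls under every alternative and without each library in turn.

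AGO3 and AGO4, like AGO1, are encoded on chromosome 1, where the 3 genes follow each other on the plus strand. In GRCh38 coordinates AGO4 spans chr1:35808172-35857890, AGO1 chr1:35869808-35930528 and AGO3 chr1:35930718-36072500, while AGO2 lies apart at chr8:140520156-140635619. AGO3 had 37.4, 22.8 and 52.6 CPM in EV 2.8K, 36.4, 18.7 and 23.6 CPM in EV 10K, 32.8, 32.8 and 41.2 CPM in EV 100K and 28.2 CPM in cells. All 3 pellets overlapped each other, and the log2 fold change of EV 100K over EV 2.8K was -0.09 (SE 0.38, adjusted p = 0.913 in edgeR). The adjacent genes AGO1 and AGO3 thus had unlike profiles across these libraries.

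AGO4 was the least even of the 10. In EV 2.8K it had 0.764, 23.5 and 12.7 CPM, which stand for 10, 390 and 147 counts. EV 10K had 35.7, 17.5 and 21.0 CPM, EV 100K 56.8, 35.7 and 42.3 CPM, and cells 17.6 CPM. All EV 100K libraries lay above every slower one, by the smallest margin with 35.74 CPM against 35.67 CPM in EV 10K, yet the log2 fold change over EV 2.8K of 1.86 (SE 0.73) missed the threshold (adjusted p = 0.0775 in edgeR). The call turned on single EV 2.8K libraries: without replicate 1 the log2 fold change was 1.31 and the adjusted p 0.0236, and without replicate 2 the values were 2.80 and 0.0253. DESeq2 called the difference on all 9 libraries, with an adjusted p of 0.0233. Against EV 10K the log2 fold change was 0.85 (SE 0.71, adjusted p = 0.579 in edgeR).

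Shares within the family carry no scaling between libraries. AGO1 made up 29.9% ± 3.06 (SD, n = 3) of the counts of the 4 Argonautes in EV 2.8K, 60.1% ± 4.48 of those in EV 10K and 51.1% ± 3.89 of those in EV 100K, against 23.8% in the cell library. AGO2 made up 59.4% ± 5.11, 34.3% ± 5.48 and 44.6% ± 4.03, against 63.7% in cells. AGO1 therefore exceeded AGO2 in counts in all 3 EV 10K libraries and in 2 of 3 EV 100K libraries, and fell short of it in every EV 2.8K library and in cells. AGO3 held 7.68% in cells and 8.0% ± 2.44, 2.89% ± 0.653 and 1.90% ± 0.206 in order of speed, so its share was smallest where AGO1 and AGO2 were most abundant.

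Counts of AGO1 per count of AGO2 were 0.404, 0.562 and 0.559 at the lowest speed, 2.21, 1.38 and 1.80 at the next, 1.33, 0.958 and 1.18 at the highest and 0.374 in cells. The 3 pellets did not overlap, and the intermediate speed had the highest ratio. An exact permutation test of the spread between the pellet means of the log2 ratio, over each of the 1680 assignments of the 9 libraries, gave p = 0.00357 for a difference between the pellets, the smallest the design allows. The same was done for 10 pairs within the families, chosen after the values were seen, and adjusted over the 10 this p was 0.0179. The pairs AGO1 to AGO3 and AGO2 to AGO3 also passed, each with an exact permutation p of 0.00714 (adjusted p = 0.0179). The ratios of AGO1, AGO2 and AGO3 to AGO4 did not, with adjusted exact permutation p-values of 0.993, 0.643 and 0.163.

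**Figure D2:**
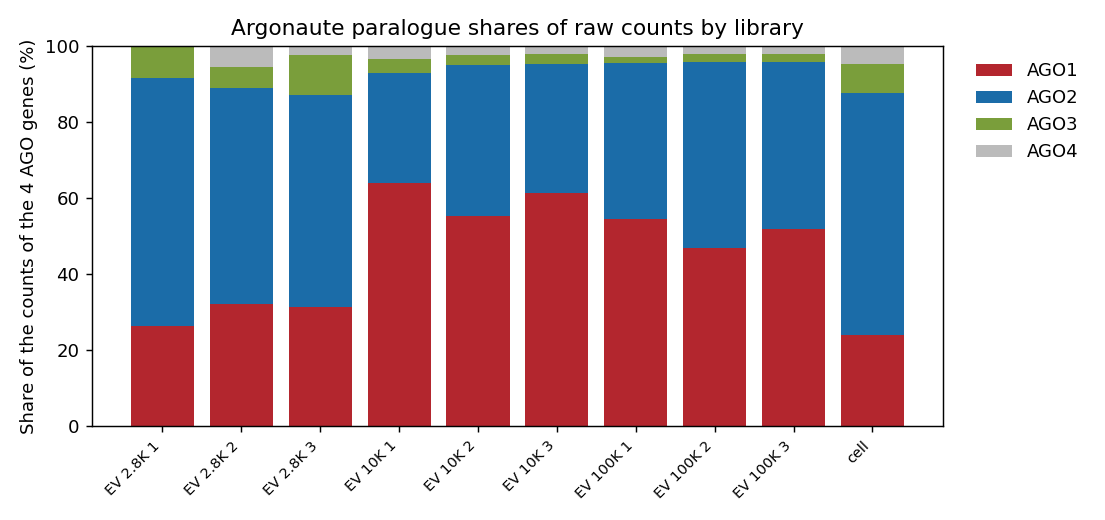
Share of AGO1, AGO2, AGO3 and AGO4 in the summed raw counts of the 4 Argonaute mRNAs, in percent, stacked for each library. AGO2 was the largest share in EV 2.8K (59.4% on average) and in cells (63.7%), and AGO1 in EV 10K (60.1%).

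The TNRC6 proteins, also known as GW182 proteins, carry the repeats that dock on Argonaute and the silencing domain that contacts the deadenylases. TNRC6A (chr16:24610209-24827632) had 87.0, 68.2 and 61.4 CPM in EV 2.8K, 118, 85.5 and 82.5 CPM in EV 10K and 178, 146 and 159 CPM in EV 100K, against 109 CPM in cells. The slower pellets overlapped and EV 100K stood above both. Its log2 fold change was 1.15 over EV 2.8K (SE 0.23, adjusted p = 0.00112 in edgeR) and 0.75 over EV 10K (SE 0.23, adjusted p = 0.0446). The second call was lost without any 1 of 6 libraries: EV 2.8K replicate 2 (adjusted p = 0.0534), the second or the third of EV 10K, and each of the EV 100K libraries (0.0888 to 0.205).

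TNRC6B (chr22:40044817-40335808) had 47.8, 73.4 and 78.6 CPM in EV 2.8K, 115, 100.1 and 89.0 CPM in EV 10K and 170, 158 and 233 CPM in EV 100K, against 101 CPM in cells. No pellet overlapped another. The log2 fold change was 1.48 over EV 2.8K (SE 0.25, adjusted p = 0.000191 in edgeR) and 0.88 over EV 10K (SE 0.24, adjusted p = 0.0258), while EV 10K over EV 2.8K had 0.61 (SE 0.24, adjusted p = 0.158). As for AGO1, the difference from EV 10K lost its call without EV 10K replicate 2 (adjusted p = 0.0864) or 3 (0.126) or EV 100K replicate 1 (0.0523) or 3 (0.201). Without any 1 of these libraries, the count of mRNAs higher in EV 100K than in EV 10K was 2 in place of 5, namely AGO2 and DICER1.

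TNRC6C (chr17:77959240-78108835) had 62.8, 37.0 and 26.2 CPM in EV 2.8K, 32.2, 24.0 and 30.2 CPM in EV 10K, 45.3, 45.1 and 24.8 CPM in EV 100K and 35.1 CPM in cells. The pellets overlapped, and the log2 fold change of EV 100K over EV 2.8K was -0.14 (SE 0.37, adjusted p = 0.854 in edgeR). In counts relative to TNRC6C, TNRC6A differed between the pellets, with mean log2 ratios of 0.86, 1.72 and 2.12 in order of speed and 1.63 in cells (exact permutation p = 0.0143, adjusted p = 0.0286 over the 10 pairs). TNRC6B to TNRC6C had 0.73, 1.82 and 2.32, with an adjusted exact permutation p of 0.0595. TNRC6A to TNRC6B had 0.13, -0.10 and -0.20, with an adjusted exact permutation p of 0.790, and SDs of 0.64, 0.13 and 0.32.

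DROSHA (chr5:31400497-31532196), the nuclear RNase, had 155, 88.3 and 125 CPM in EV 2.8K, 92.7, 107 and 98.0 CPM in EV 10K and 92.2, 86.5 and 94.4 CPM in EV 100K. The cell library had 157 CPM, above each of the 9 EV libraries, and DROSHA was the only one of the 10 with this order. The share of all genes with this order is not given here. The pellets overlapped, with a log2 fold change of -0.44 (SE 0.23, adjusted p = 0.192 in edgeR) in EV 100K against EV 2.8K and -0.13 (SE 0.23, adjusted p = 0.846) against EV 10K.

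DGCR8 (chr22:20080232-20111877), the RNA-binding partner of DROSHA, had 33.8, 20.8 and 13.2 CPM in EV 2.8K, 45.1, 25.9 and 32.3 CPM in EV 10K and 88.2, 71.7 and 49.6 CPM in EV 100K, against 42.9 CPM in cells. The slower pellets overlapped and EV 100K stood above both. The log2 fold change was 1.62 over EV 2.8K (SE 0.38, adjusted p = 0.00344 in edgeR), and that over EV 10K, 1.01 (SE 0.37), missed the threshold (adjusted p = 0.0977). Without EV 2.8K replicate 1, the second difference passed (adjusted p = 0.0285), and without EV 100K replicate 1 the joint test did not (adjusted p = 0.0758).

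The 2 partners of the nuclear complex thus had different courses. The log2 ratio of DGCR8 to DROSHA counts was -2.20, -2.09 and -3.25 at the lowest speed, -1.04, -2.04 and -1.60 at the next and -0.06, -0.27 and -0.93 at the highest, against -1.87 in cells. The 3 pellets did not overlap, and the exact permutation p over the 9 libraries was 0.00357 (adjusted p = 0.0179 over the 10 pairs). DGCR8 remained the less counted of the pair in all 10 libraries.

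DICER1 (chr14:95086228-95158010), the cytoplasmic RNase, had 41.6, 51.0 and 61.7 CPM in EV 2.8K, 66.6, 31.2 and 34.7 CPM in EV 10K and 130.2, 108.5 and 103.9 CPM in EV 100K, against 66.2 CPM in cells. The slower pellets overlapped, and EV 100K stood above them and above the cell library. The log2 fold change was 1.14 over EV 2.8K (SE 0.30, adjusted p = 0.00794 in edgeR) and 1.36 over EV 10K (SE 0.30, adjusted p = 0.00604), and both calls held under every alternative and without each library in turn. EV 10K over EV 2.8K gave -0.22 (SE 0.30, adjusted p = 0.776).

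**Figure D3:**
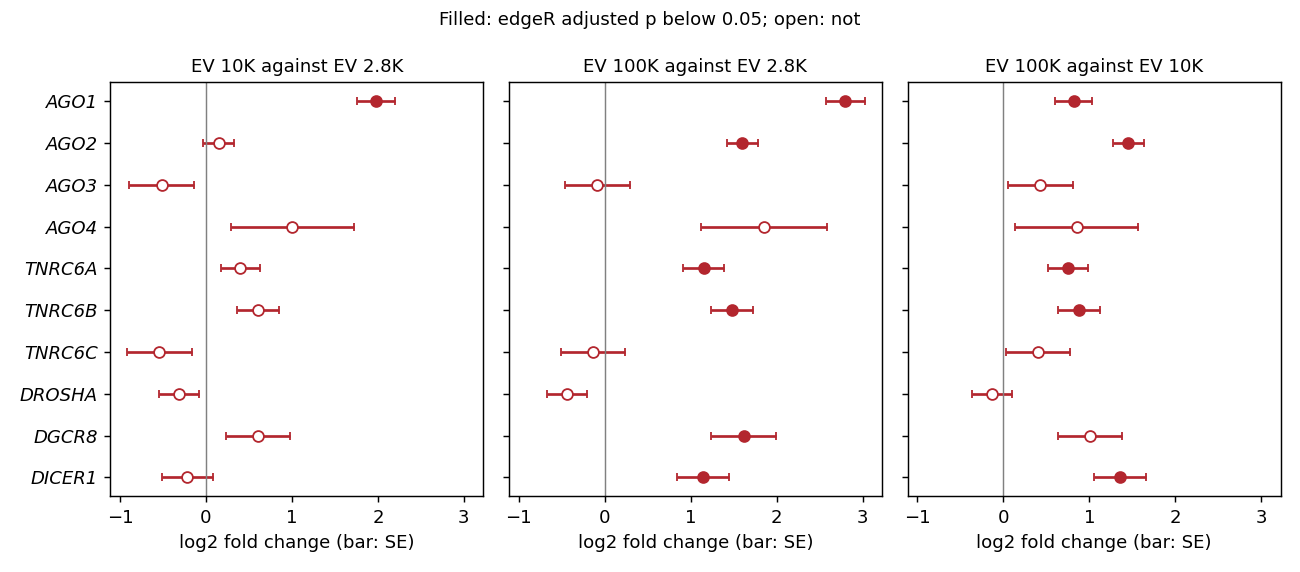
Log2 fold change of each of the 10 mRNAs in the 3 comparisons of pellets, with bars for the SE of the edgeR fit and filled symbols where the adjusted p passed 0.05. AGO1 is filled in all 3 comparisons and AGO3, AGO4, TNRC6C and DROSHA in none.

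Levels of different mRNAs were compared as CPM per kilobase of the union of annotated exons. In the cell library the order was DROSHA (20.1 CPM per kb), AGO2 (14.8), TNRC6A (8.44), AGO1 (6.30), DGCR8 (5.87), DICER1 (5.39), TNRC6B (5.06), TNRC6C (3.16), AGO4 (2.42) and AGO3 (1.33). In EV 2.8K, AGO2 (17.3 ± 1.95 CPM per kb, SD, n = 3) and DROSHA (15.8 ± 4.29) led and did not differ beyond their spread, and AGO1 followed with 9.92 ± 1.44. In EV 10K, AGO1 led with 39.1 ± 9.08, ahead of AGO2 with 19.1 ± 1.40 and DROSHA with 12.7 ± 0.912.

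In EV 100K the order was AGO1 (69.4 ± 12.6 CPM per kb), AGO2 (52.6 ± 3.40), TNRC6A (12.5 ± 1.26), DROSHA (11.7 ± 0.521), DGCR8 (9.55 ± 2.65), TNRC6B (9.35 ± 2.01), DICER1 (9.29 ± 1.14), AGO4 (6.18 ± 1.48), TNRC6C (3.46 ± 1.06) and AGO3 (1.68 ± 0.227). From TNRC6A to DICER1, each mRNA overlapped the next in the order, but TNRC6A and DROSHA lay above DICER1 without overlap. AGO1 and AGO2 stood far above all of these. By exon union, AGO1 moved from the fourth place in cells to the first, and AGO3 was last in cells, EV 10K and EV 100K. With the longest transcript as the length, 7 of the 10 kept their place in cells, and 5, 8 and 8 did in the pellets in order of speed. DROSHA then stood before AGO2 in EV 2.8K, and AGO1 was at place 6 in cells.

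**Figure D4:**
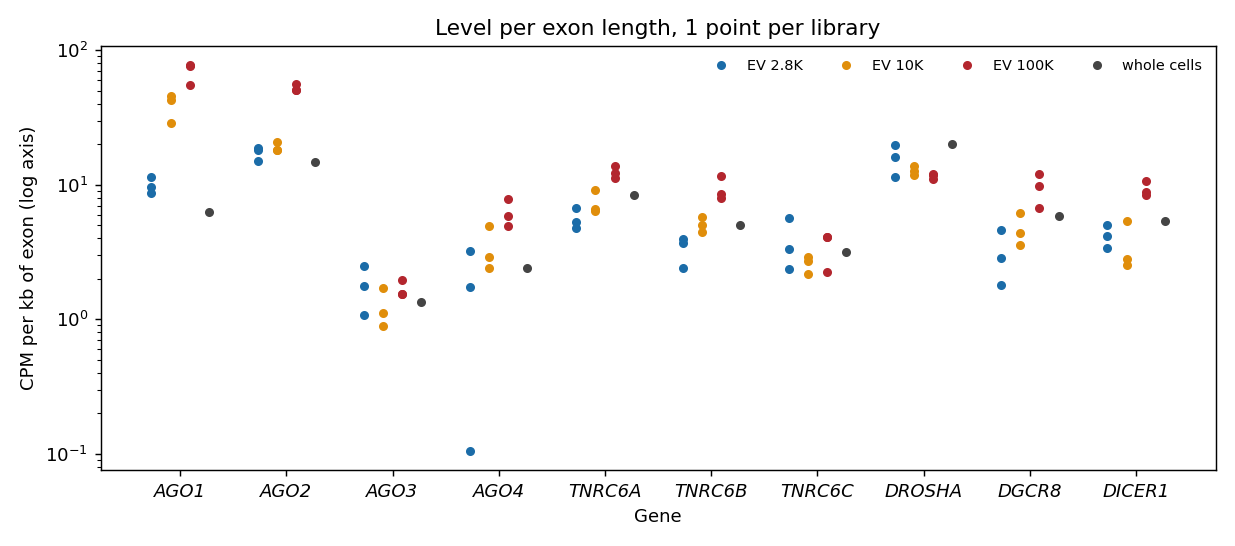
Level per length of the 10 mRNAs, in CPM per kb of the exon union on a log axis, for the 3 pellets (points for libraries) and the cell library. AGO1 and AGO2 separate from the rest in EV 100K, at 69.4 and 52.6 CPM per kb on average against at most 12.5 for the other 8.

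Against whole cells only a description was possible, with 1 cell library. In EV 100K, 3 of the 10 were at least 2-fold above the cell value on average with all 3 libraries above it, beside 14.7% of 22370 genes: AGO1 (11.0-fold, log2 3.46), AGO2 (3.56-fold, log2 1.83) and AGO4 (2.56-fold, log2 1.35). In EV 10K this held for AGO1 alone (6.21-fold, log2 2.63), beside 8.35% of genes, and in EV 2.8K for 0 of the 10, beside 6.57%. At least 2-fold below the cells in all 3 libraries were 0 of the 10 in each pellet, beside 20.1%, 24.6% and 27.0% of genes in order of speed.

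Every EV library exceeded the cell library for AGO1 and AGO2 (9 of 9 each), and none did for DROSHA (0 of 9). The shares of all genes with these orders, or with those that follow, are not given here. The orders therefore describe these mRNAs only. With library totals alone in place of TMM, AGO2 was above in 6 of 9, and with DESeq2's size factors DROSHA was above in 1. TNRC6A, TNRC6B, DGCR8 and DICER1 lay below the cell value in all of EV 2.8K and above it in all of EV 100K, with log2 ratios in EV 100K of 0.56, 0.89, 0.70 and 0.79. With library totals, DGCR8 was above in only 2 EV libraries. The median log2 ratio to cells of the 10 was -0.36, -0.15 and 0.74 in order of speed, and that of all genes was -0.00, -0.05 and -0.19. These ratios depend on the scaling. With library totals alone, the median of all genes shifted by -0.21, -0.31 and -0.35 in order of speed and AGO4 in EV 100K came to 0.99, just under the 2-fold limit. DESeq2's size factors shifted it by 0.11, 0.11 and 0.17, and TNRC6B then passed the limit with 1.05. AGO3 in EV 100K had 0.33 with TMM and -0.01 with library totals.

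All 10 mRNAs but DROSHA had 3' UTRs longer than the median of 1338 bases over 11988 tested protein-coding genes, in the longest coding transcript of GENCODE 29. The lengths were 10921 bases for AGO1, 11888 for AGO2, 16755 for AGO3, 4285 for AGO4, 2420 for TNRC6A, 12566 for TNRC6B, 3990 for TNRC6C, 935 for DROSHA, 1763 for DGCR8 and 4270 for DICER1. Across these 11988 genes, the log2 fold change of EV 100K over EV 2.8K had a Spearman correlation of 0.28 with 3' UTR length and 0.26 with transcript length, and that over EV 10K 0.31 and 0.37. For EV 10K over EV 2.8K these correlations were 0.09 and -0.01. All are descriptions across genes of the same libraries, and genes are not independent replicates. Among the 10, AGO3 with the longest 3' UTR and DROSHA with the shortest passed no comparison. AGO1 and AGO2, of similar 3' UTR length, were both higher in EV 100K against each slower pellet. In EV 10K against EV 2.8K they had 1.98 and 0.15 on the log2 scale. The part of transcript length in the results was not tested.

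**Figure D5:**
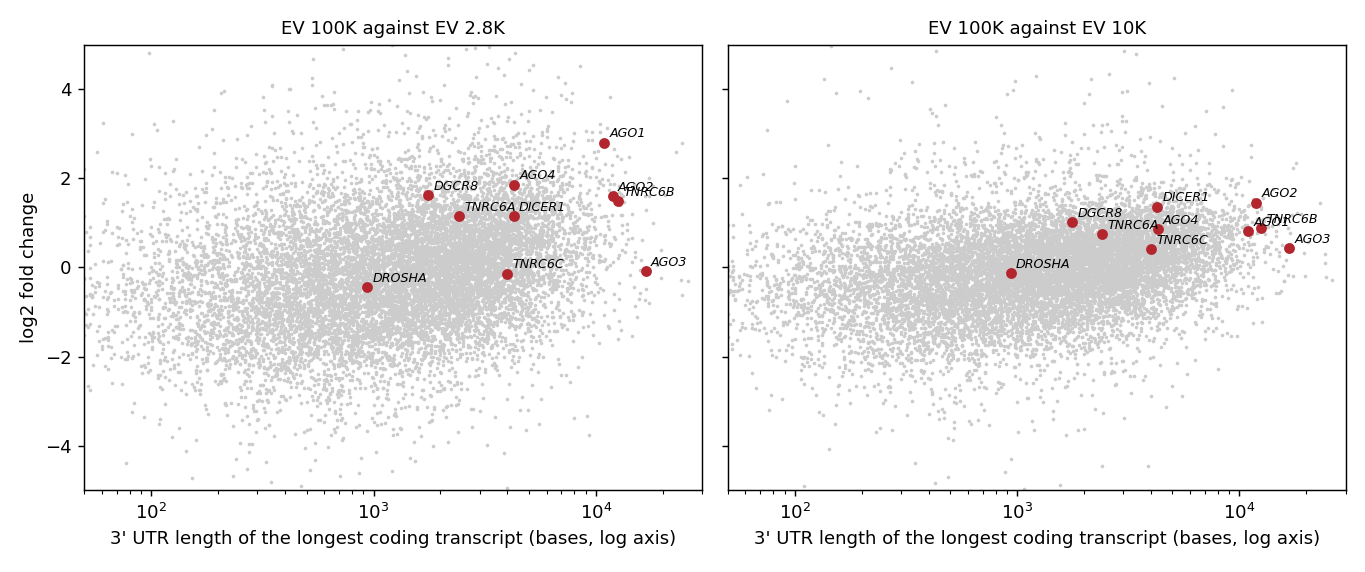
Log2 fold change of EV 100K over EV 2.8K and over EV 10K against the 3' UTR length of 11988 protein-coding genes, with the 10 mRNAs named; 342 and 298 genes lie outside the axes. The Spearman correlations are 0.28 and 0.31, and AGO3, with the longest 3' UTR of the 10, lies at -0.09 and 0.43.

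Other genes of the pathway were taken from lists chosen by function. Beside the list counts below, 12.0% of all genes tested were higher and 13.8% lower in EV 100K against EV 2.8K. In EV 100K against EV 10K these shares were 3.70% and 7.23%, and in EV 10K against EV 2.8K 4.15% and 2.22%. Of 25 genes of Argonaute loading and partner proteins, 5 were higher and 8 lower in EV 100K against EV 2.8K, 1 higher and 6 lower than in EV 10K, and 1 higher and 2 lower in EV 10K against EV 2.8K. Of the chaperones and cochaperones that act in Argonaute loading, some were lower in EV 100K against EV 2.8K and others passed in neither direction. PTGES3, among the latter, was lower in EV 100K against EV 10K (log2 -0.60, SE 0.19, adjusted p = 0.0435 in edgeR). HSP90AB1 fell from 2209 ± 278 CPM (SD, n = 3) in EV 2.8K to 566 ± 8.13 in EV 100K (log2 -1.97, SE 0.19, adjusted p = 5.19e-07 in edgeR), HSPA8 fell from 1633 ± 87.8 to 449 ± 56.9 CPM (log2 -1.87, SE 0.19, adjusted p = 9.83e-07), and the cochaperone STIP1 fell from 609 ± 265 to 139 ± 3.94 CPM (log2 -2.14, SE 0.26, adjusted p = 6.93e-06). HSP90AA1, HSPA4, DNAJA1, DNAJA2, DNAJB1, PTGES3 and FKBP5 did not pass against EV 2.8K, with log2 fold changes of -0.43, 0.09, 0.44, -0.43, -0.21, -0.14 and 0.97. Another cochaperone, FKBP4, fell by 1.53 on the log2 scale (SE 0.20, adjusted p = 1.30e-05 in edgeR). Those that were higher included WTIP and AJUBA, LIM proteins that bind the silencing complex, and EIF4E2 and GIGYF2, which repress translation at the cap, with log2 fold changes of 1.87, 1.45, 1.20 and 1.03. ZSWIM8, which marks Argonaute for decay on certain target RNAs, fell in EV 10K already (log2 -1.15, adjusted p = 0.00329 in edgeR).

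Of 19 tested cofactors of microRNA maturation, 3 were higher and 6 lower in EV 100K against EV 2.8K, 0 higher and 1 lower than in EV 10K, and 1 higher and 0 lower in EV 10K against EV 2.8K. ADARB1, an RNA-editing enzyme, rose from 42.3 ± 19.8 CPM in EV 2.8K to 111 ± 27.0 in EV 10K and 179 ± 20.4 in EV 100K (log2 2.07 in EV 100K, SE 0.31, adjusted p = 6.90e-05 in edgeR). The other 2 were NCBP2, of the nuclear cap-binding complex, with 0.82 and HNRNPA1 with 0.54. Relatives of these genes were lower: NCBP1, the other subunit of the cap-binding complex, had -0.81 (SE 0.29, adjusted p = 0.0462 in edgeR) and the editing enzyme ADAR -0.78 (SE 0.19, adjusted p = 0.00460). SRRT (ARS2), which links cap binding to primary microRNA cleavage, fell from 206 ± 88.1 to 77.7 ± 4.61 CPM (log2 -1.41, SE 0.28, adjusted p = 0.000833 in edgeR), KHSRP, a binder of hairpin loops, had a log2 fold change of -0.92 (SE 0.20, adjusted p = 0.00207) and PRKRA, the Dicer partner PACT, -1.39 (SE 0.38, adjusted p = 0.0108). ERH, which joins the nuclear complex, was the gene lower than in EV 10K (log2 -0.89, adjusted p = 0.0210 in edgeR).

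Downstream of TNRC6, 4 of 20 genes of deadenylation were higher and 3 lower in EV 100K against EV 2.8K. Of all genes tested, 12.0% were higher and 13.8% lower, and members of 1 complex differed in direction. The catalytic subunit CNOT6 rose from 29.2 ± 14.5 CPM in EV 2.8K to 71.6 ± 6.07 in EV 10K and 133 ± 11.4 in EV 100K (log2 2.18 in EV 100K, SE 0.33, adjusted p = 6.56e-05 in edgeR). CNOT3, a structural subunit, fell from 240.4 ± 94.1 to 112 ± 27.0 and 50.9 ± 2.08 CPM (log2 -2.25 in EV 100K, SE 0.29, adjusted p = 1.23e-05 in edgeR). The poly(A)-binding protein mRNA PABPC1 rose by 0.63 (SE 0.16, adjusted p = 0.00812 in edgeR), CNOT4 by 1.30 and CNOT2 by 0.86, and PAN2 and BTG1 had -2.20 and -1.05. In EV 10K against EV 2.8K, CNOT6, CNOT2 and PABPC1 were higher and CNOT3 lower, and in EV 100K against EV 10K 0 were higher and 1, CNOT3, was lower.

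Of 18 genes of decapping and 5'-to-3' decay, 5 were higher and 3 lower in EV 100K against EV 2.8K, 2 higher and 1 lower than in EV 10K, and 3 higher and 0 lower in EV 10K against EV 2.8K. DCP2, the decapping enzyme, rose from 26.2 ± 9.81 to 54.8 ± 12.6 and 128 ± 6.48 CPM in order of speed (log2 2.28 in EV 100K over EV 2.8K, SE 0.30, adjusted p = 1.58e-05 in edgeR), and passed between each pair of pellets. So did LSM14B, a protein of RNA granules, which rose from 74.9 ± 10.2 to 144 ± 28.9 and 306 ± 31.1 CPM (log2 2.02, SE 0.22, adjusted p = 2.02e-06 in edgeR). EIF4ENIF1, which links cap-binding eIF4E to decay, had a log2 fold change of 1.44 (SE 0.28, adjusted p = 0.000860 in edgeR), EDC3 had 1.13 and LSM4 0.84, and the 3 that were lower were EDC4 (-1.65), LSM7 (-1.83) and LSM2 (-1.23).

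Of 10 genes for proteins described as sorters of RNA into vesicles, SYNCRIP rose through the speeds, from 208 ± 32.6 to 352 ± 71.7 and 656 ± 143 CPM (log2 1.65 in EV 100K over EV 2.8K, SE 0.22, adjusted p = 1.62e-05 in edgeR). YBX1 and RALY were lower in EV 100K than in both slower pellets, with log2 values against EV 10K of -1.07 (SE 0.19, adjusted p = 0.00123 in edgeR) and -0.78 (SE 0.21, adjusted p = 0.0194). Over these 10, 1 was higher in each comparison, and 0, 2 and 2 were lower in EV 10K over EV 2.8K, EV 100K over EV 2.8K and EV 100K over EV 10K. The PIWI-clade Argonautes, which act mainly in the germ line, had too few counts to test: PIWIL1 and PIWIL3 had 0 counts in all 10 libraries, PIWIL2 0 to 19 and PIWIL4 8, all in cells. The median log2 fold changes of EV 100K over EV 2.8K were -0.14 for loading and partners, -0.19 for maturation cofactors, 0.52 for deadenylation, 0.31 for decapping and -0.15 for RNA sorting, beside -0.06 for all genes tested.

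Likeness of pattern was measured as the Pearson correlation of log2(CPM + 1) over the 10 libraries, among 8887 genes with a mean of at least 10 CPM. The libraries share depth and pellet differences, so high values are a description only. Among the closest protein-coding genes were RNF114 (0.971) and FOXK2 (0.969) to AGO2, DGKH (0.969), VPS13D (0.958) and ITCH (0.950) to DICER1, and CBX6 (0.987), FOXK1 (0.982) and ELK4 (0.973) to TNRC6B. AGO1, added after its values were seen, had HNRNPA3 (0.994), EHBP1L1 (0.990) and PURA (0.990). Among the 10 themselves the closest pair was TNRC6A and DGCR8 (0.948), and the lowest value was that of AGO4 and DROSHA (-0.764).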

How the data were processed

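The tools named in the submitters' processing notes are featureCounts 1.6.3, STAR 2.6.1d, cutadapt 2.7 and bcl2fastq 2.19.1.403, with build GRCh38, and the authors deposited 1 table of whole-number read counts per gene that were not normalized. Per the labels' protocols, Trizol was used to extract RNA and the libraries came from the SMARTer Pico kit for stranded total RNA. The annotation, the strand setting and the handling of reads over several places or overlapping genes are not given in these sources. Antisense and overlapping genes may therefore share reads with the 10 mRNAs. TRMT2A at the end of DGCR8 has 12 shared exonic bases. Antisense TNRC6C-AS1 shares 1438 with TNRC6C, AC006547.2 shares 526 with DGCR8, and AL139286.2 shares 396 with AGO1. These antisense genes other than TRMT2A have no entry of their own in the count table. Groups and set numbers came from the sample titles.

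The 10 mRNAs and the gene lists were chosen with earlier results of these data known. All columns of the table were mapped to samples. Counts were tested with edgeR 4.0.16 (R 4.3.3), using TMM factors, a filterByExpr minimum count of 10 by group, the robust quasi-likelihood F-test on the 9 EV libraries without a set term (6 residual degrees of freedom, prior 11.7), and Benjamini-Hochberg adjustment over all 15525 genes. From each list, the text names the up to 3 genes with the smallest p per comparison among those that passed, and the members of counts of 5 or fewer. Further genes named from larger counts were chosen after their values were seen. Results for some genes that the rule names are not reported here. Ratios within families were compared with exact permutation tests in Python 3.11.15. Figures were drawn with matplotlib 3.10.9. Alternatives were DESeq2 1.42.0 and its size factors, no filter, no mitochondrial genes, a set block, other sets of libraries, and each library left out. The fits were tested on simulated counts. A count of 0 allows up to 3 counts, and precision covers counting error only, since reads are not independent molecules.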

Additional observations from a re-analysis of the deposited data

How the results depend on the processing

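Over the alternatives, 483 of 510 values of the 10 mRNAs between pellets kept their direction and side of the threshold, 15 lost a call, 8 gained one, 4 that were not called changed sign, and 0 reversed a call. All 15 losses were in EV 100K against EV 10K (AGO1, TNRC6A and TNRC6B), 14 of them on leaving out 1 library. Leaving out 1 library gave 2 to 6 higher mRNAs there. With no filter on low counts TNRC6A lost its call (adjusted p = 0.0559), and on all 10 libraries or the 6 compared DGCR8 gained one (0.0494 and 0.0242). AGO4 passed in EV 100K against EV 2.8K with no filter (adjusted p = 0.000533) and on all 10 libraries (0.000425). With the set number as a replicate block, 1, 6 and 5 of the 10 were higher, and no call of a member changed. Deviations from the group means correlated at -0.02 to 0.07 between libraries of the same set, positive in 8 of 9 pairs, and at -0.06 to 0.05 between sets. No pair exceeded 0.1. Same-set libraries matched best between EV 2.8K and EV 10K, and between EV 10K and EV 100K, in every set. Between EV 2.8K and EV 100K this held for replicate 3. There, EV 2.8K replicates 1 and 2 each correlated best with a library of another set. No label says that a set is a shared culture or day, so the main fit had no set term. Counts over all genes depended more on the setting. In EV 10K against EV 2.8K, 645 genes were higher and 345 lower, against 997 and 638 by DESeq2, 362 and 199 on 6 libraries, 531 lower on all 10, 687 and 388 with the replicate block, and 383 to 812 and 167 to 368 on leaving out 1 library. In EV 100K against EV 10K, 575 were higher, against 936 by DESeq2, 1199 on 6 libraries and 266 to 1055 on leaving out 1 library, and 1122 were lower, against 703 to 1494. Against cells, 1 mRNA in EV 2.8K (DGCR8) and 1 in EV 100K (DROSHA) was at least 2-fold lower with library totals alone, and 0 to 1 in EV 2.8K and in EV 10K on leaving out 1 library. Of 90 ratio tests without 1 library, 12 lost a call and 3 gained one. The losses can only fall on pairs that passed with all 9 libraries, and which of these lost a call is not reported here. Leaving out lnc-ARF6-1, the most counted noncoding entry, was added after seeing the data. The cause of the other shifts was not tested. AGO4 had 10 counts in EV 2.8K replicate 1, whose total was not low. Mitochondrially encoded RNA took 12.9% of the counts of this library, against 4.92 and 4.81% in replicates 2 and 3. Its counts had Spearman correlations of 0.826 and 0.816 with theirs, and replicates 2 and 3 had 0.864 with each other. Within EV 10K these values were 0.879 to 0.900, and within EV 100K 0.954 to 0.955, so the EV 2.8K libraries agreed least. The cause was not tested. The PIWI genes had too few counts to test at these depths.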
